A study of Rattus norvegicus with 49 samples.

Results

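The core circadian clock was followed in the rat thyroid through 10 genes, Bmal1, Clock, Npas2, Per1, Per2, Per3, Cry1, Cry2, Nr1d1 and Nr1d2. They were chosen by name, as the probes whose RefSeq accession belongs to one of these symbols, and hold 15 of the 30367 non-control probes, 10 of 15154 gene symbols matched on the array. All 15 probes passed the filter on dim probes. Bmal1, Clock and Npas2 have 2 probes and Per3 has 3, of which the brightest on average stands for the gene here; the rest are mentioned where they depart from it. The signal of a spot is given here as log2 of its background-subtracted intensity minus the 75th percentile of its array, so a value of 0 is as bright as that percentile and a difference of 1 is a doubling. Signals of different probes were not set against each other.

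Thyroids of male Sprague Dawley rats were measured on 49 one-colour arrays in 13 groups, and each array was taken as 1 rat. Untreated controls were 4, 7, 10 or 13 months old (n = 4, 3, 4 and 3). Young rats received the radioactive iodine isotope 131I intravenously at 5 weeks of age, either 50 kBq with thyroids taken 3, 6 or 9 months later (n = 4 each), or 0.5, 5 or 500 kBq with thyroids taken 9 months later (n = 4, 3 and 4). Adult rats received 50 kBq at 17 weeks and were killed 3, 6 or 9 months later (n = 4 each). Young rats were thus 4, 7 or 10 months old and adult rats 7, 10 or 13 months old when killed, and each exposed group was compared with the controls of its age. The hour of the day at which the rats were killed is not given in the sources used here. In whole tissue, fewer cells of a type and less RNA per cell cannot be told apart.

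The clock is a feedback loop that runs in nearly every cell and makes transcripts rise and fall once a day. The positive arm, BMAL1 paired with CLOCK or its relative NPAS2, switches on genes that carry E-box sequences, among them the Per, Cry and Nr1d genes. The PER and CRY proteins of the negative arm return to the nucleus and block BMAL1 and CLOCK, while the nuclear receptors REV-ERBα and REV-ERBβ, made from Nr1d1 and Nr1d2, repress Bmal1, Npas2, Clock and Cry1. Bmal1 and Npas2 transcripts therefore peak at the opposite time of day from those of Nr1d1, Per3 and the clock output Dbp.

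The sequence before the start of a gene is shown for one member of each arm, to show the letters the clock proteins are known to read. They come from RefSeq on the build GRCr8, and the 250 bases upstream of the start are shown. The windows searched were 300 bases long and also hold the bases just after the start. Searched on both strands were the E-box CACGTG, the related E-prime-box CACGTT, the D-box TTATGTAA, which factors such as DBP read, and AGGTCA, the half-site of the REV-ERB and ROR receptors. None of these letter strings contains another. Capitals mark the matches.
Bmal1, chr1:176766078-176766327, plus strand: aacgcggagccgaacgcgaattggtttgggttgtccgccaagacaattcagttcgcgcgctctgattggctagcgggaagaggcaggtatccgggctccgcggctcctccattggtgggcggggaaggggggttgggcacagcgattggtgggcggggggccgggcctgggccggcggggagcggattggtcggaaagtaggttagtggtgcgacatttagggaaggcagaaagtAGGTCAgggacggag
Per2, chr9:99496994-99497243, minus strand: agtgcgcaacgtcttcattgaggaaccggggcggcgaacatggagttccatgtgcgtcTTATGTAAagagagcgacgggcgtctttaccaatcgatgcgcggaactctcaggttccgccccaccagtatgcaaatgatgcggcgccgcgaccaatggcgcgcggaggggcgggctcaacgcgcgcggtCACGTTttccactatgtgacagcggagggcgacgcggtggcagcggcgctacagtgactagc
Nr1d1, chr10:84229455-84229704, minus strand: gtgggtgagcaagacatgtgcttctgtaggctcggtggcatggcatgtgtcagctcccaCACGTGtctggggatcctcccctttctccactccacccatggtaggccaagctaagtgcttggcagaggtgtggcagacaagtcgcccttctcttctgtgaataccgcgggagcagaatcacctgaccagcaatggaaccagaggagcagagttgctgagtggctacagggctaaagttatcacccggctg

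Bmal1 held a half-site at -15 bases from its start. Per2 held an E-prime-box at -62 and a D-box at -192 bases, and the second of the 2 windows listed for Nr1d1 held an E-box at -191 bases. Of 9 members with a window in the table, 1 held an E-box, 3 an E-prime-box, 1 a D-box and 2 the half-site. These counts are per gene over 11 windows, while the shares that follow are per window. Over all 33469 windows of the table, the shares were 6.42% for the E-box, 4.83% for the E-prime-box, 0.893% for the D-box and 16.2% for the half-site. A match describes letters in this window and is not a measured binding site.

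Before the results, 3 arrays stood apart from the other 46. Replicate 2 of the 50 kBq young group at 3 months was dim, with a 75th percentile of 61.0 in intensity units against 783 to 4172 on the other 48 arrays and 43.1% of its spots well above background against 69.2 to 82.5%. Replicate 3 of the same group and replicate 2 of the 7-month controls went against the tissue label: the summed log2 signal of 11 markers of follicular thyrocytes, the hormone-making cells, was 2.24 and 1.61 there, against 7.32 to 8.67 on the 46 arrays and 11.1 on the dim array. The signal of Tg, the thyroglobulin gene, was 0.14 and -0.69 on these arrays and at least 6.41 on the 46. Results are therefore given for all 49 arrays and for the 46. In addition, the replicates 1 and 2 of the 13-month controls, and replicates 1 and 2 of the 50 kBq adult group at 6 months, were closer to each other than any other of the 1176 pairs of arrays: the SD of their log2 differences over 15189 probes was 0.177 and 0.218, against 0.335 for the next pair and a median of 0.718. Each of these pairs lay on different slides, and whether it holds 1 RNA measured on 2 arrays is not known, so results that rest on them are also given with each pair averaged and counted as 1 replicate, which leaves n = 2 in the 13-month controls.

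**Figure D1:**
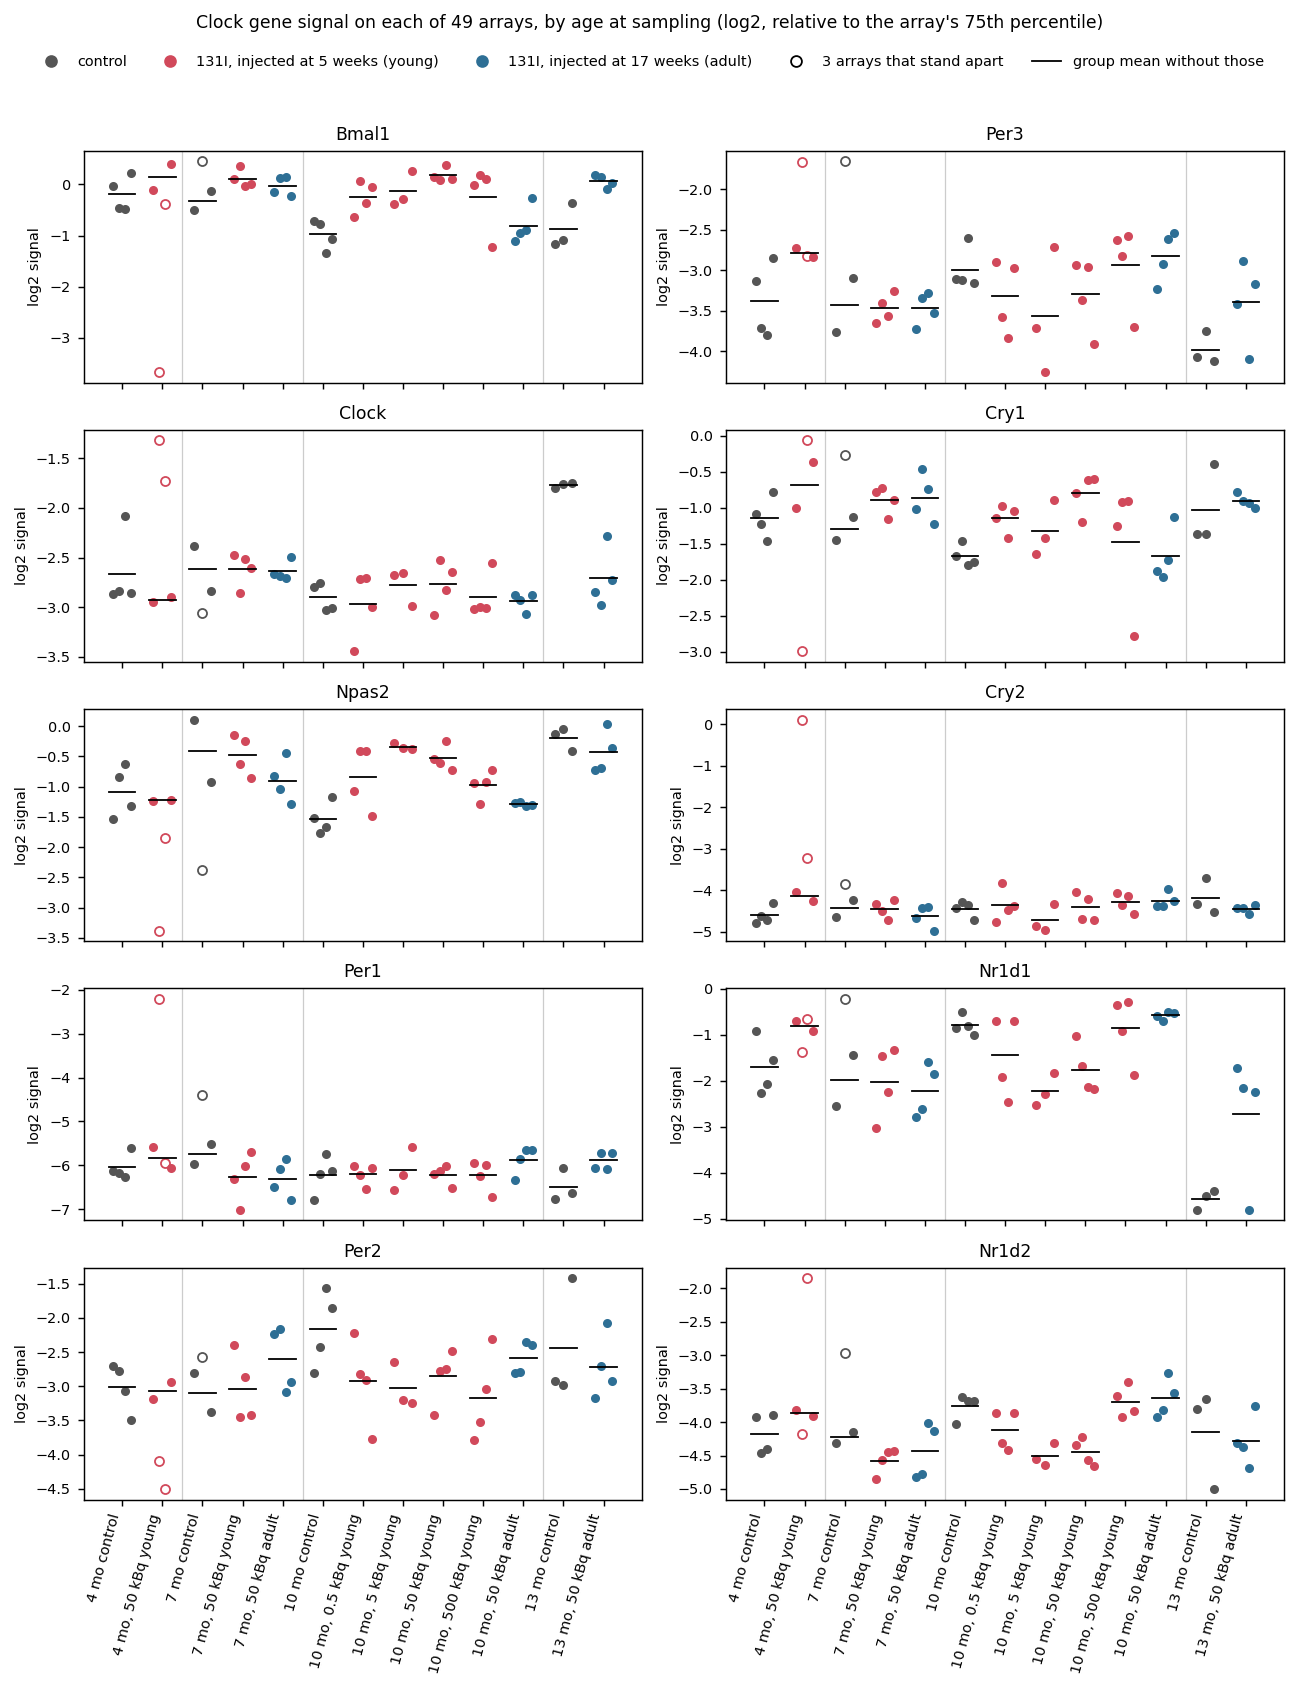
Log2 signal of each clock gene, relative to the array's 75th percentile, on every array (points), by age at sampling and group (horizontal axis). Black lines are group means without the 3 arrays that stand apart (open points). Bmal1 lay between -1.34 and -0.71 in the 10-month controls and between 0.09 and 0.39 in young rats 9 months after 50 kBq, and Nr1d1 was at or below -4.40 in all 13-month controls.

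Levels of the clock genes varied by different amounts between rats. Over the 46 arrays, Nr1d1 ranged most widely, from -4.81 to -0.27 with an SD of 1.15, and Cry2 least, from -4.97 to -3.69 with an SD of 0.28. The other 8 genes had SDs of 0.35 to 0.52. Part of the range lay within groups, where the pooled SD was 0.69 for Nr1d1 and 0.23 for Clock. Per1 was well above background on 43 of the 49 arrays, and every other member on at least 48.

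The first question was whether clock genes differed between exposed rats and controls of the same age. A probe was called when its Benjamini-Hochberg adjusted p in limma was below 0.01 and its fold change over 1.5. On 49 arrays, none of the 10 genes was called in any of the 9 comparisons, in which 0.0158%, 0%, 0%, 0.0119%, 0.0119%, 0%, 0%, 0% and 0.557% of the 25304 tested probes were called. The order is 50 kBq young at 3 and 6 months, 0.5, 5, 50 and 500 kBq young at 9 months, and 50 kBq adult at 3, 6 and 9 months. At an unadjusted p under 0.05, 5, 1, 1, 4, 4, 1, 1, 0 and 2 of the 10 genes passed in limma, against 37.9%, 6.55%, 0.929%, 1.82%, 1.41%, 1.63%, 4.73%, 0.79% and 21.9% of all tested probes. The 5 genes of young rats at 3 months and the 2 of adult rats at 9 months are therefore near the share of all probes. On the 46 arrays these numbers were 0, 0, 3, 5, 4, 3, 0, 0 and 4 of 10, against 10.1%, 10.5%, 2.46%, 6.61%, 4.7%, 5.21%, 8.17%, 3.66% and 34.8%. On these arrays Bmal1 and Clock were called in adult rats 9 months after injection, where 8.9% of all tested probes were called.

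Bmal1, the partner without which the loop does not run, had its lowest group mean in the controls of 10 months. Its signal was -0.71, -0.77, -1.34 and -1.07 in these 4 rats. In rats of the same age that had received 131I when young, it was -0.64, 0.06, -0.36 and -0.05 after 0.5 kBq, -0.38, -0.28 and 0.25 after 5 kBq, and 0.15, 0.09, 0.39 and 0.11 after 50 kBq. All 11 arrays of these 3 groups lay above all 4 controls.

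After 500 kBq, Bmal1 was -0.02, 0.18, 0.10 and -1.23, so 3 arrays lay above the controls and 1 among them. In adult rats 6 months after 50 kBq, which were also 10 months old, it was -1.11, -0.94, -0.90 and -0.27, and the groups overlapped. The log2 difference from controls was 0.72 ± 0.24 (SE on 46 arrays) after 0.5 kBq, 0.83 ± 0.26 after 5 kBq, 1.15 ± 0.24 after 50 kBq and 0.73 ± 0.24 after 500 kBq, and 0.16 ± 0.24 in the adults. None of these 5 differences was called: the adjusted p on 46 arrays was 0.725 after 5 kBq, 0.0895 after 50 kBq and 0.909 after 500 kBq. For 0.5, 5 and 50 kBq the two-sided exact permutation p was 0.0286, the smallest that these group sizes allow. The 5 comparisons share the same 4 controls, which makes them dependent. The second Bmal1 probe showed the same separation, with log2 differences of 0.70, 0.88 and 1.21 after 0.5, 5 and 50 kBq.

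Npas2, the relative of Clock that can take its place beside BMAL1, was -1.51, -1.77, -1.67 and -1.17 in the 10-month controls. It was -0.28, -0.36 and -0.37 after 5 kBq and -0.54, -0.61, -0.25 and -0.72 after 50 kBq. Neither exposed group overlapped the controls, with log2 differences of 1.19 ± 0.25 (SE, adjusted p = 0.109 on 46 arrays) and 1.00 ± 0.23 (adjusted p = 0.274), neither of which was called. The second Npas2 probe overlapped in both, with differences of 0.24 and 0.26. Clock itself differed by at most 0.13 in size in the 5 comparisons at 10 months.

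The Rev-erb genes lay the other way. Nr1d1 was -0.84, -0.51, -0.80 and -1.01 in the 10-month controls, -2.51, -2.29 and -1.84 after 5 kBq, and -1.03, -1.67, -2.14 and -2.18 after 50 kBq. The exposed arrays all lay below the controls, with log2 differences of -1.42 ± 0.52 and -0.96 ± 0.48 (SE, 46 arrays). Nr1d2 also lay below the controls in both groups, with differences of -0.75 ± 0.25 and -0.69 ± 0.23. After 0.5 and 500 kBq both genes overlapped with the controls. The adjusted p of all these differences was 0.725 or more on 46 arrays.

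In the negative arm, Cry1 was -1.67, -1.46, -1.80 and -1.75 in the 10-month controls and -0.79, -1.20, -0.62 and -0.60 after 50 kBq. It did not overlap with the controls after 0.5 and 50 kBq, with log2 differences of 0.52 ± 0.28 and 0.87 ± 0.28 (SE, 46 arrays), but did after 5 and 500 kBq. Per2 was lower in mean after every activity, by log2 differences of -0.76, -0.86, -0.69 and -1.0 from 0.5 to 500 kBq, and overlapped with the controls each time. Per3 differed by -0.57 after 5 kBq and -0.30 after 50 kBq with its brightest probe, which overlapped, while its other 2 probes lay below all controls in both groups, by -1.01 and -1.32 after 5 kBq and by -0.96 and -1.20 after 50 kBq. Per1 and Cry2 differed by at most 0.27 in size. None of these members was called.

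Counted over the 10 genes, the groups did not overlap for 2 after 0.5 kBq, 4 after 5 kBq, 5 after 50 kBq and 0 after 500 kBq, and for 0 in adults at 6 months. Over all tested probes the groups did not overlap for 1.06%, 15.4%, 3.99%, 2.92% and 4.07%. In the other comparisons the count was 2 for 50 kBq young at 3 months, 1 at 6 months, 0 for adults at 3 months and 2 at 9 months, where 5.41%, 7.83%, 7.65% and 26.1% of all tested probes did not overlap. On the 46 arrays the count was 4 for young rats at 3 months, where 17.1% of all tested probes did not overlap, 2 at 6 months (18.5%) and 0 for adults at 3 months (17.6%); the other comparisons hold none of the 3 arrays. The arrays were scanned on 3 dates. Within the first and the third date, Bmal1 was higher than the controls of that date by 0.98 and 1.57 after 50 kBq, by 0.57 and 1.59 after 5 kBq and by 0.53 and 1.29 after 0.5 kBq, and Nr1d1 was lower, with differences of -0.81 and -1.10 after 50 kBq and -1.50 and -1.03 after 5 kBq. For Nr1d1 after 0.5 kBq the direction differed between dates, at -0.90 and 0.11. The first date held 3 of the 4 controls of 10 months and the third date 1. The second date held none of them, but held 3 of the 4 arrays after 500 kBq. For those 3 arrays exposure and scan date cannot be told apart. Of the exposed arrays, the first date held 2 after 50 kBq, 1 after 5 kBq and 3 after 0.5 kBq and the third date 2, 1 and 1, so the third-date differences set 1 or 2 exposed arrays against a single control and have no replicate check of their own.

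**Figure D2:**
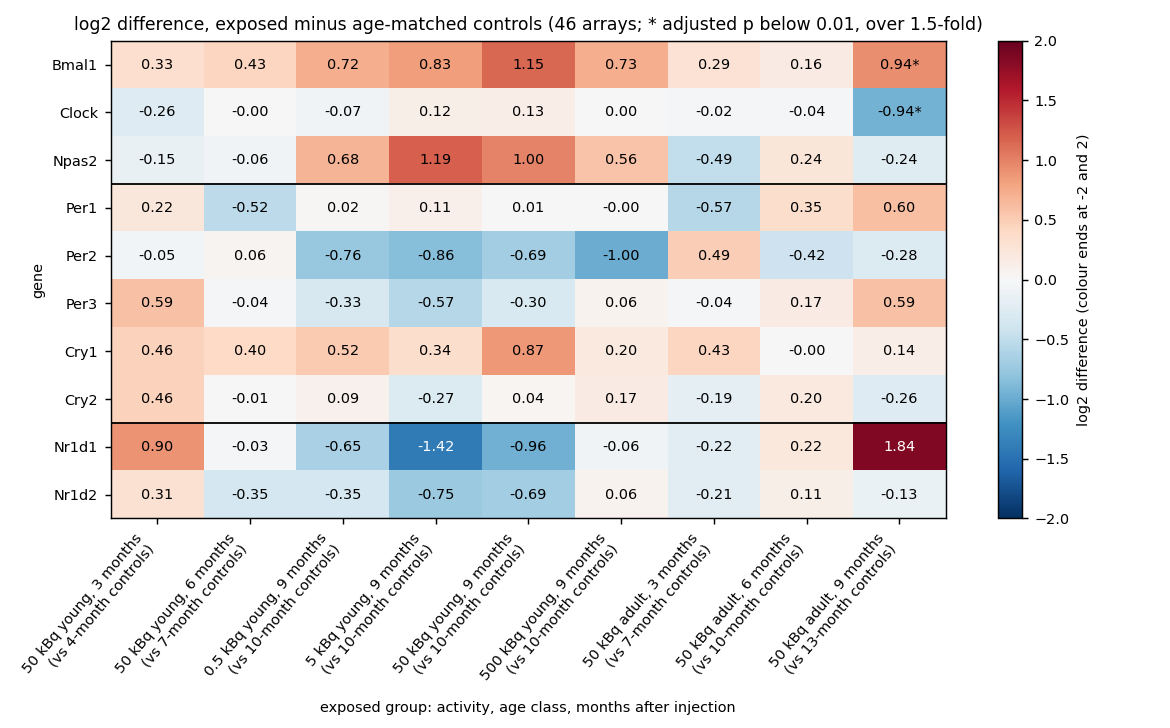
Log2 difference between each exposed group and the controls of its age (columns) for each clock gene (rows), fitted on the 46 arrays; colour runs from blue, lower in exposed rats, to red, higher. Asterisks mark the calls, Bmal1 at 0.94 and Clock at -0.94 in adult rats 9 months after injection. In the 4 columns of young rats at 9 months Bmal1 and Npas2 were higher and Per2 lower in mean, from 0.56 to 1.19 and from -0.69 to -1.0.

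Young rats 3 and 6 months after 50 kBq showed smaller differences once the arrays that stand apart were left out. At 3 months the log2 differences on 46 arrays ranged from -0.26 for Clock to 0.90 for Nr1d1, with n = 2 in the exposed group, and on 49 arrays Cry2 was at 1.76 (adjusted p = 0.0219), a value that rests on the dim array, where Cry2 was at 0.11 against -4.25 to -3.21 on the other 3. At 6 months they ranged from -0.52 for Per1 to 0.43 for Bmal1. In adult rats at 3 months they ranged from -0.57 for Per1 to 0.49 for Per2, and at 6 months from -0.42 for Per2 to 0.35 for Per1. The adjusted p was above 0.49 in each of these on 46 arrays. All 4 arrays of young rats at 6 months were scanned on 1 date, on which no 7-month control was scanned. In that comparison exposure and scan date cannot be told apart. The 7-month controls, also used for adult rats at 3 months, had n = 2 on the 46 arrays.

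In adult rats 9 months after 50 kBq, Bmal1 and Nr1d1 were higher and Clock lower in mean than in the 13-month controls. Bmal1 was 0.19, 0.15, -0.10 and 0.02 in exposed rats and -1.17, -1.09 and -0.36 in controls, and the groups did not overlap. The log2 difference was 0.94 ± 0.26 (SE, adjusted p = 0.00888 on 46 arrays and 0.24 on 49 arrays), a 1.92-fold higher signal, and with the alike pair of controls averaged the adjusted p was 0.0701. The second Bmal1 probe gave 1.09 (adjusted p = 0.00307 on 46 arrays).

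Clock was -2.84, -2.98, -2.28 and -2.73 in these exposed rats and -1.80, -1.76 and -1.75 in the 13-month controls. All exposed arrays lay below all controls, with a log2 difference of -0.94 ± 0.18 (SE, adjusted p = 0.000461 on 46 arrays, 0.032 on 49, and 0.00553 with the pairs averaged on the 46). The second Clock probe also lay below the controls, by -0.30 (adjusted p = 0.244 on 46 arrays). Within the first scan date, with 2 exposed arrays and 2 controls, the difference was -0.79 for Clock and 0.81 for Bmal1. Neither was called there (adjusted p = 0.305 and 0.274 in limma). The third date held 2 exposed arrays and no control of that age, and the second date 1 control and no exposed array. Nr1d1 was -1.71, -2.16, -4.80 and -2.24 in exposed rats and -4.81, -4.50 and -4.40 in controls. Its difference of 1.84 ± 0.52 was not called (adjusted p = 0.0103 on 46 arrays), and replicate 3 of the exposed group lay among the controls.

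That array and the 13-month controls also differed from the rest in skeletal muscle. The summed log2 signal of 7 muscle markers was 0.74 on replicate 3 of the exposed group, 6.70, 6.77 and 7.32 in the 13-month controls and 9.42 to 9.74 on the other 3 exposed arrays of that age. All 7 markers were well above background on each of these arrays except replicate 3 of the exposed group, where 6 were. Nr1d1 had its 4 lowest values of the 49 arrays, from -4.81 to -4.40, on the 13-month controls and on that array. On replicate 4 after 500 kBq and replicate 1 of the 7-month controls, which had muscle signals of 7.25 and 7.85, Nr1d1 was -1.88 and -2.54, and the other 43 arrays had muscle signals of at least 8.74. Skeletal muscle is a tissue with a strong clock of its own. Its part in these differences, those of Bmal1 and Clock included, was not tested.

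Whether the 50 kBq effect differed between young and adult rats, or between times after injection, was tested with 9 contrasts of differences. On 49 arrays no clock gene was called, and 0% of all tested probes were called in each contrast. At an unadjusted p under 0.05 in limma, 5 of the 10 genes passed for young rats at 6 against 3 months, 6 at 9 against 3 months and 0 at 9 against 6 months, where 29.9%, 17.5% and 4.9% of all tested probes passed. For adult rats 0, 4 and 2 genes passed in the same order, against 4.24%, 15.5% and 10.8%, and for young against adult rats 5, 0 and 3 passed at 3, 6 and 9 months, against 29.6%, 3.93% and 13.3%. On the 46 arrays 0, 4 and 1 genes passed for young rats, where 1787, 1932 and 3160 of the 25304 tested probes passed. For adult rats 1, 3 and 3 genes passed there, against 2467, 3582 and 6072 probes. For young against adult rats 0, 1 and 4 genes passed there, against 1727, 2304 and 6769 probes. On 46 arrays Clock was called in the contrast of young with adult rats at 9 months, where 2.23% of all tested probes were called: the effect on Clock was 0.13 in young rats and -0.94 in adults, a difference of 1.07 ± 0.25 (SE, adjusted p = 0.00732 on 46 arrays, 0.205 on 49 and 0.0341 with the pairs averaged on the 46). Within the first scan date this difference was 0.78 and was not called (adjusted p = 0.814 in limma). For Nr1d1 the effect was -0.96 in young and 1.84 in adult rats, a difference of -2.81 ± 0.70 that was not called (adjusted p = 0.0123 on 46 arrays).

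**Figure D3:**
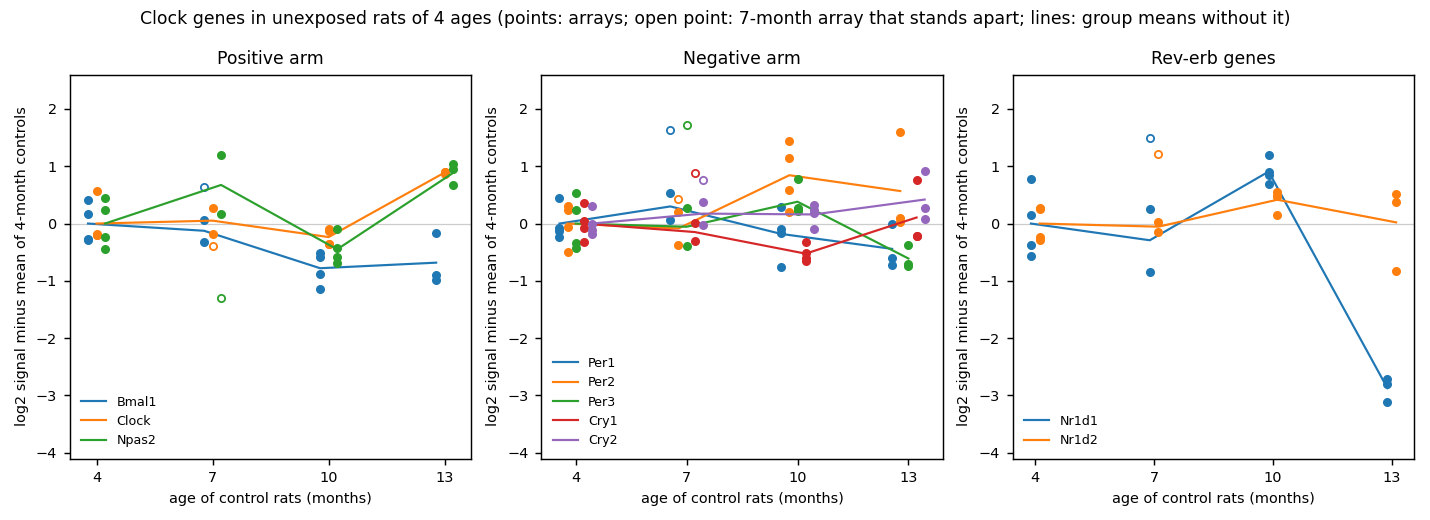
Log2 signal of the clock genes in unexposed rats, as the difference from the mean of the 4-month controls (vertical axis), by age in months (horizontal axis). Points are arrays, the open points a 7-month array that stands apart, and lines join group means without it. Nr1d1 fell by 2.87 and Clock and Npas2 lay 0.89 higher at 13 than at 4 months.

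The clock genes were also compared between control rats of different ages. No gene was called between 4 and 7, 4 and 10 or 7 and 10 months on 49 arrays, where 0.00395%, 0.0119% and 0% of all tested probes were called. At an unadjusted p under 0.05 in limma, 0, 1 and 0 of the 10 genes passed, against 7.62%, 3.64% and 5.93% of all tested probes, and on the 46 arrays 1, 2 and 4, against 13.5%, 6.96% and 14.2%. The largest size of these 3 comparisons was for Nr1d1 between 7 and 10 months, a log2 difference of 1.2 ± 0.58 on 46 arrays (adjusted p = 0.347). Bmal1 was -0.03, -0.46, -0.48 and 0.21 at 4 months, all above the 10-month controls, a difference of -0.78 ± 0.24 from 4 to 10 months (adjusted p = 0.28 on 46 arrays).

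The 13-month controls differed more from the younger ones. Nr1d1, which encodes REV-ERBα, was -0.92, -2.26, -2.07 and -1.55 at 4 months, -2.54, -0.21 and -1.44 at 7 months, -0.84, -0.51, -0.80 and -1.01 at 10 months and -4.81, -4.50 and -4.40 at 13 months. The 13-month arrays lay below every younger control. Markers of other cell types moved in the same arrays. Besides the lower muscle signal, the summed log2 signal was 8.35 to 8.67 for the 11 thyrocyte markers, 8.02 to 8.23 for 6 markers of C cells, the calcitonin-making cells of the thyroid, and 7.26 to 7.39 for 3 markers of the parathyroid gland, each above the other 43 of the 46 arrays, which reached 8.32, 7.91 and 7.0. The part of these cells in the age differences was not tested. Nr1d1 was called in all 3 comparisons with 13 months, in which 5.15% of all tested probes were called against 4 months, 4.79% against 7 months and 6.35% against 10 months on 49 arrays, and 21.9%, 3.64% and 21.5% on the 46.

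Against 10 months Nr1d1 fell by 3.78 ± 0.53 on the log2 scale (SE, adjusted p = 0.000212), a 13.7-fold lower signal. With the alike pair averaged on 49 arrays the adjusted p was 0.00588, and leaving out any 1 array kept the call. The exact permutation p was 0.0286, the smallest possible. Against 4 months Nr1d1 fell by 2.87 ± 0.53 (adjusted p = 0.00135), a call that was lost without replicate 1 of the 4-month controls (0.0122), without replicate 1 or 2 of the 13-month controls (0.0171 and 0.0126), with the alike pair averaged (0.0197) or with the 2 groups fitted alone (0.0204). Against 7 months it fell by 3.17 ± 0.57 (adjusted p = 0.000916), and by 2.58 ± 0.62 on the 46 arrays (adjusted p = 0.00644). That call was lost when only the 7-month array that lacks thyrocyte markers was left out (0.0322), without replicate 1 of the 13-month controls (0.0125), with the alike pair averaged (0.012 on 49 arrays, 0.0338 on the 46) and with the 2 groups fitted alone (0.204). Within the first scan date the Nr1d1 difference was -3.01 against 4 months and -3.82 against 10 months (adjusted p = 0.045 and 0.017 in limma), and within the second date -2.70 against 4 months (0.883), where 1 of the 13-month arrays was scanned.

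Clock and Npas2, which pair with BMAL1, were higher at 13 months. Clock was -2.80, -2.76, -3.03 and -3.01 at 10 months and -1.80, -1.76 and -1.75 at 13 months. It rose by 1.13 ± 0.26 on the log2 scale (SE, adjusted p = 0.00371 on 49 arrays and 2.42e-05 on 46), a 2.18-fold higher signal. On 49 arrays this call was lost without replicate 3 or 4 of the 10-month controls (0.0113 and 0.0107), without replicate 1 or 2 of the 13-month controls (0.0257 and 0.0262), with the alike pair averaged (0.0317) and with another background correction (0.015). Within the first scan date the difference was 1.08 (adjusted p = 0.0353 in limma).

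With the 3 arrays that stand apart left out and the pair averaged, the Clock difference had an adjusted p of 0.00052. The second Clock probe lay 0.73 higher (adjusted p = 0.00226 on 46 arrays). Npas2 was -1.51, -1.77, -1.67 and -1.17 at 10 months and -0.13, -0.05 and -0.41 at 13 months. The log2 difference was 1.34 ± 0.25 (SE, adjusted p = 0.000138 on 46 arrays and 0.0145 on 49), and both genes were also called against 4 months on the 46 arrays, at 0.89 each (adjusted p = 0.000389 for Clock and 0.00563 for Npas2). With the pair averaged on these arrays, Clock was still called against 4 months (0.00376) and Npas2 was not (0.032), while Npas2 was called against 10 months (0.00257). Neither gene was called against 7 months, where Clock lay 0.99 higher on 49 arrays and 0.84 on the 46 and Npas2 0.87 and 0.21.

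None of the other 7 members was called between 13 months and a younger age on 49 or 46 arrays with the probe that stands for it. Bmal1 lay 0.10 ± 0.26 above its 10-month level at 13 months (SE, adjusted p = 0.793 on 46 arrays). Nr1d2, the close relative of Nr1d1, was -3.80, -3.65 and -5.00 at 13 months and -4.03, -3.63, -3.68 and -3.69 at 10 months, and the groups overlapped. Per3 lay below all 10-month arrays at 13 months, at -4.07, -3.75 and -4.12 against -3.11, -3.11, -2.60 and -3.15, with a difference of -0.99 ± 0.32 (adjusted p = 0.0131 on 46 arrays) that was not called. Its 2 other probes, at -1.07 and -0.99, were called on the 46 arrays (adjusted p = 0.000734 and 0.0017), and the first of them on 49 arrays too (0.0093). Per1, Per2 and Cry2 differed by at most 0.28 in size between 10 and 13 months, and Cry1 by 0.63 (adjusted p = 0.0916 on 46 arrays). Between 7 and 13 months Per1 differed by -1.19 and Per3 by -1.15 on 49 arrays, and by -0.74 and -0.55 on the 46 (adjusted p = 0.151 and 0.376).

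The 2 arms can also be set against each other as the mean signal of an arm's genes, each gene centred on its mean over all arrays. The positive arm minus the negative arm (Per and Cry genes) was lowest in the 10-month controls, -0.50 ± 0.37 (SD, n = 4), and in adults at 6 months, -0.44 ± 0.20 (n = 4), with the young group at 3 months set aside, as it holds 2 of the arrays that stand apart. It was highest in the 13-month controls, 0.48 ± 0.15 (n = 3), and after 5 kBq, 0.46 ± 0.31 (n = 3). The positive arm minus the Rev-erb genes ranged from -1.17 ± 0.21 in adults at 6 months and -1.12 ± 0.25 in the 10-month controls to 1.82 ± 0.39 in the 13-month controls. These scores are a description and were not tested.

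Relations between members were computed across arrays for all 45 pairs of genes. The permutations shuffled arrays across groups, so their p also takes in differences between groups and treats alike arrays as independent. For deviations from the group means, arrays were shuffled within groups. Over 49 arrays, 19 pairs had an adjusted permutation p under 0.05 for Pearson's r, 20 for Spearman's rho and 12 for both. Over 46 arrays the numbers were 20, 24 and 20. As deviations from the group means on the 46 arrays, which removes what differs between groups, 24 pairs passed for Pearson's r, 14 of them with a positive and 10 with a negative r.

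Bmal1 and Cry1, an activator and a repressor of the loop, had an r of 0.82 and a rho of 0.86 over 46 arrays (permutation p = 1e-05 for both, the smallest possible) and an r of 0.82 over 49. The r was 0.80 without the 2 arrays farthest from the median of Bmal1, and within the 3 scan dates it was 0.80 (n = 23), 0.83 (n = 13) and 0.94 (n = 10). As deviations from the group means on 46 arrays it was 0.90.

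Nr1d1 was set against the other genes without the 13-month-old rats, which leaves 39 arrays, because all 3 controls and 1 of the 4 exposed rats of that age had values far below the rest. The other 3 exposed rats, which are left out with them, lay within the range of the 39. The set was chosen after the values of Nr1d1 were seen. The permutation p below therefore describe these 39 arrays only. Nr1d1 and Nr1d2 rose and fell together, with r = 0.88 and rho = 0.87, and r = 0.85 without the 2 farthest arrays. Within the 3 scan dates their r was 0.84 (n = 19), 0.92 (n = 12) and 0.97 (n = 8). Nr1d1 ran against Npas2 with r = -0.73 and rho = -0.72, and against Clock with r = -0.67 and rho = -0.74. It ran with Per3, at r = 0.80 and rho = 0.80. All 4 pairs had a permutation p of 1e-05, with arrays shuffled across groups. They kept their sign within each scan date and without the 2 farthest arrays.

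**Figure D4:**
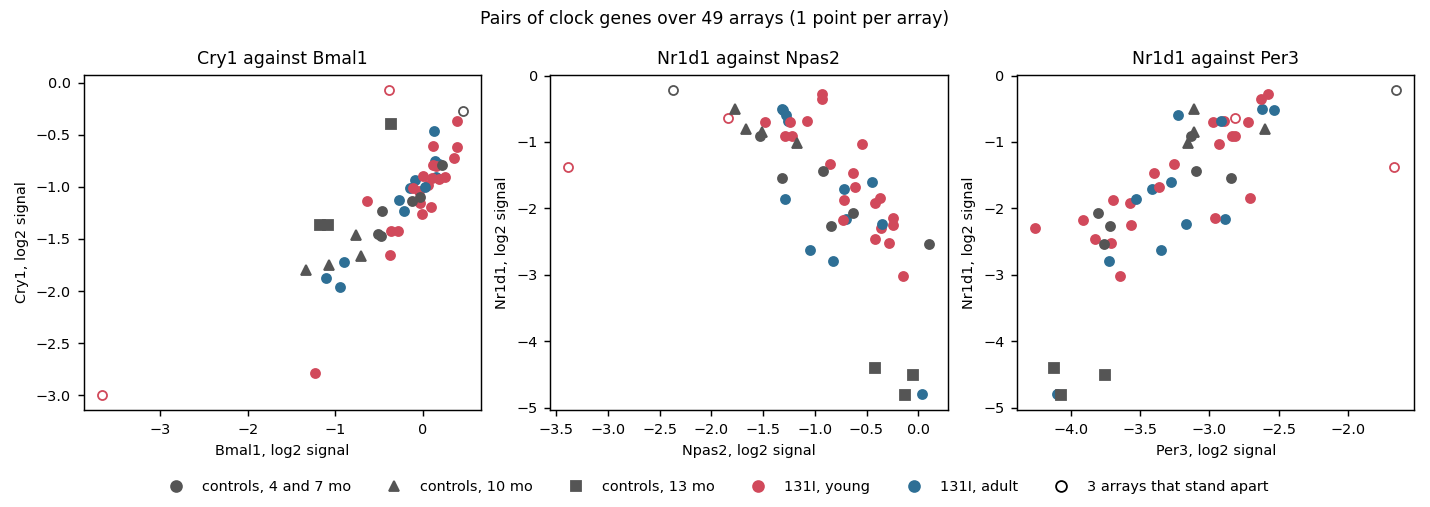
Log2 signals of 3 pairs of clock genes on the 49 arrays, 1 point per array, with controls, young and adult exposed rats in different colours and the 3 arrays that stand apart as open points. Bmal1 and Cry1 rose together, Nr1d1 was lower where Npas2 was higher and higher where Per3 was higher, and the 13-month controls (squares) lie at the lowest Nr1d1 with 1 adult exposed array beside them.

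Not every pair of the positive arm moved together. Bmal1 and Npas2 had r = 0.19 and rho = 0.14 over 46 arrays (adjusted p = 0.35 and 0.402), and Bmal1 and Clock had r = -0.21 and rho = -0.16 (adjusted p = 0.296 and 0.376). On 49 arrays the r of these pairs was 0.44 and -0.48 (adjusted p = 0.0169 and 0.00492), while rho was 0.15 and -0.26 (0.394 and 0.137). Clock and Npas2 had r = 0.56 and rho = 0.60 on the 46 (permutation p = 1e-05 for both), and r = 0.03 on 49. Clock ran against Per3 with r = -0.75 and rho = -0.85 over 46 arrays, with r = -0.72 and rho = -0.81 over the 39 without the 13-month groups, and with r = -0.31 and rho = -0.67 over 49. Bmal1 and Nr1d1 had r = -0.25 and rho = -0.19 over the 39 arrays (adjusted p = 0.222 and 0.342), where r was -0.39, 0.10 and -0.62 within the 3 scan dates. The sign turned with the arrays used: r was 0.05 over all 46 arrays, in which the low values of the 13-month rats lie apart, and 0.36 as deviations from the group means on the 46 (rho = 0.32, adjusted p = 0.0346 and 0.061).

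Of the 5 genes most like Bmal1 among 13196 genes other than the 10 members over 49 arrays, Wbp1l, Insig2, Mbnl2, Zfp180 and Rprd1b, each had an r of 0.83 to 0.85. The lowest were Lsm3, Cdk10, Engase, Ppp4r3b and Dpy30, at -0.80 to -0.78. These r shrank to between 0.61 and 0.67 and between -0.59 and -0.44 without the 3 arrays that stand apart. On the 46 arrays the highest of the genes other than members was Nfil3 at 0.86, a repressor that reads the D-box, followed by Pnrc1, Dyrk2, Det1 and Mbnl2 at 0.69 to 0.67. The member Cry1, at 0.82, lies between Nfil3 and Pnrc1. The points share groups and scan dates, and these r are a description.

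Of 24 other genes of the clock pathway, 17 had a probe and all 17 were tested. The other 7 were not analysed here. On 49 arrays 1 of the 17, Dbp, was lower after 5 and after 50 kBq in young rats at 9 months. Its 3 probes were the only 3 of 25304 called in either comparison, and also the only 3 called between 4 and 10 months in controls.

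Dbp, a transcription factor driven directly by the loop, was 3.59, 3.95, 4.56 and 4.08 in the 10-month controls, 2.04, 1.59 and 1.71 after 5 kBq and 2.39, 2.16, 1.70 and 1.72 after 50 kBq. It fell by 2.26 ± 0.34 on the log2 scale after 5 kBq (adjusted p = 0.000843) and by 2.05 ± 0.32 after 50 kBq (adjusted p = 0.0015). In the 4-month controls it was 2.70, 1.60, 2.04 and 2.21, and in the 13-month controls 1.61, 1.75 and 1.70. The 10-month controls thus lay above every younger and older control, the nearest being the 7-month array that lacks thyrocyte markers, at 3.51. Dbp was also as high in adult rats of 10 months, at 3.87, 4.02, 4.14 and 3.79.

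The Dbp calls were lost when only the 19 arrays of the 4 activities and their controls were fitted (adjusted p = 0.35 after 5 kBq and 0.518 after 50 kBq), and with each pair of groups alone (0.183 and 0.312). They were also lost without replicate 3 of the 10-month controls (0.0144 and 0.0341), without replicate 2 or 3 after 5 kBq (0.0272 and 0.016) and without replicate 3 or 4 after 50 kBq (0.0212 and 0.024). The rise from 4 to 10 months, 1.91 ± 0.32 (adjusted p = 0.00567), was lost without replicate 2, 3 or 4 of either group (adjusted p from 0.0227 to 0.117), with scan date as a block (0.0195), with the replicate number as a block (0.0107), with the alike pairs averaged on 49 arrays (0.011) and with the 2 groups fitted alone (0.194). Within the first and the third scan date the differences were -2.28 and -2.85 after 5 kBq and -1.82 and -2.63 after 50 kBq, and the rise was 1.72 within the first; none of these was called. The direction was kept each time.

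Between 10 and 13 months in controls, 2 of the 17 other genes fell and none rose on 49 arrays, Dbp by 2.36 (adjusted p = 0.000212) and Tef, a relative of Dbp, by 1.60 (adjusted p = 0.00473). Over all tested probes 6.35% were called there. On the 46 arrays, where 21.5% of all tested probes were called, 5 fell and 2 rose, and with the alike pair averaged on them, where 10.5% were called, 3 fell and 1 rose: Dbp, Tef, Prkaa2 and Csnk1e. Bhlhe40, an E-box repressor, fell by 1.51 (adjusted p = 0.00846), Prkaa2, a subunit of the energy sensor AMPK that is abundant in muscle, fell by 2.65 (adjusted p = 0.000237), Ciart, a repressor of BMAL1 and CLOCK, fell by 2.46 (adjusted p = 0.00338), Csnk1e, a kinase that marks PER proteins for breakdown, rose by 1.36 (adjusted p = 6.94e-05), and Timeless, a replication fork protein that is also linked to the clock, rose by 1.49 (adjusted p = 0.00348), all on 46 arrays. Of the other 2 Csnk1e probes 1 lay 1.24 higher and 1 differed by -0.23. The Ciart probe was well above background on only 20 of the 49 arrays, with a mean log2 signal of -6.64. The size of its fall is therefore that of a signal near background. The median log2 difference of the 17 genes was -0.27 and that of the 10 core genes -0.08, against 0.22 for all tested probes.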

How the data were processed

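The authors deposited 1 file per array from Agilent Feature Extraction 10.7.3.1, with an intensity per spot from which the software had taken the background, without any scaling across arrays. The deposited table holding the authors' own fold changes, and the normalization and test behind it, were not used here. Signals were taken to log2 after leaving out control spots and spots marked as outliers, each array was centred on its 75th percentile, and repeated spots were averaged by probe. RefSeq accessions matched 17998 of 30367 probes to a symbol. Probes well above background on at least 3 arrays were tested (25304).

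A limma 3.58.1 model in R 4.3.3 (jsonlite 2.0.0 and version 1.17.8 of data.table) with 1 mean per group was fitted to 49 arrays, and a call needed both an adjusted p (Benjamini-Hochberg) under 0.01 and over 1.5-fold change. Single probes were also compared by two-sided exact permutation tests, and pairs of genes by 100000 permutations, in Python 3.11.15 with scipy 1.17.1, matplotlib 3.10.9, numpy 2.4.6 and pandas 2.3.3. Arrays carry no read depth; their number limits the precision.

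Alternatives were quantile normalization, normexp background correction with an offset of 50, other filters and thresholds, fewer arrays in the fit, replicate number, slide or scan date as a block, array weights, the mean of a gene's probes, and each array left out. The mean spot signal was not among the columns, so normexp used the median. Leaving out the 3 arrays that stand apart and averaging the 2 alike pairs were chosen after seeing the data. The scripts were tested on simulated data.

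The rule for named genes takes all 10 members, 24 other clock genes in 5 groups, and the 5 genes most and least like Bmal1 over 49 arrays; Nfil3, Pnrc1, Dyrk2 and Det1 as leaders over 46 arrays were named after their values were seen. Members and lists were chosen with earlier results of these data known. Markers of follicular thyrocytes (11 genes) and skeletal muscle (7 genes with a probe) were summed per array. Replicate numbers did not pair the samples: deviations of same-numbered arrays correlated between -0.52 and 0.49, and all pairs of a comparison were above 0.1 only for 50 kBq young rats at 6 months (0.14 to 0.33). The sample titles give tissue, age, activity, age class and replicate number. They do not state that a sample is 1 rat, and each was taken as the thyroid of 1 rat.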

Additional observations from a re-analysis of the deposited data

Results flagged for a closer look

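In groups of 4, a value was marked when its gap to the nearest other array was a larger share of the group's range than Dixon's critical value for 4 samples allows. Of 100 combinations of gene and group tested, 9 were marked, 3 of them on the arrays that stand apart, and chance marks about 1 in 20. After 500 kBq, replicate 4 was the lowest for Bmal1, at -1.23 against -0.02 to 0.18 on the other 3 arrays, and the highest for Clock, at -2.55 against -3.02 to -3.0. The summed muscle signal of this array was 7.25, the lowest of its group. In the 4-month controls replicate 3 was the highest for Clock, at -2.09 against -2.86 to -2.84. In the 10-month controls replicate 3 was the highest for Per3, at -2.60 against -3.15 to -3.11, and replicate 1 the lowest for Nr1d2, at -4.03 against -3.69 to -3.63. In adult rats 9 months after 50 kBq replicate 3 was the lowest for Nr1d1, at -4.80 against -2.24 to -1.71. In young rats 3 months after 50 kBq the dim replicate 2 was the highest for Per1, at -2.20 against -6.07 to -5.58, and for Per3, at -1.66 against -2.84 to -2.72, and replicate 3, which lacks thyrocyte markers, was the highest for Nr1d2, at -1.85 against -4.18 to -3.82.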

How the results depend on the processing

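Of 1031 gene values recomputed under an alternative none reversed: 949 kept direction and side of the threshold, 47 lost a call and 35 gained one. They cover only genes and comparisons called on 49 arrays or without the 3 arrays that stand apart. Many alternatives, such as another threshold or an array left out of another group, cannot change a log2 difference. For these no reversal was possible, so the lack of reversals is informative only for the other alternatives. On 49 arrays the members called were 1, 1 and 2 for 13 months against 4, 7 and 10 months and 0 in every other comparison, and of 1521 recomputed counts 50 moved by over 1.5 times; the share of all tested probes called under the same setting stands in parentheses. For 13 against 4 and against 7 months, the counts were 2 and 2 with quantile normalization (5.81% and 3.78%), 2 and 3 at an adjusted p below 0.05 (17.7% and 16.6%), and 0 and 0 with the groups of the comparison alone (0% and 0.00395%). At an adjusted p below 0.05, 1 member was called in young rats at 3 months (16.9%) and 2 in adults at 9 months (4.53%). For 13 against 10 months the count was 4 with the groups alone (15.7%) and 4 with the mean of a gene's probes (6.37%), and for 13 against 4 months 2 with slide as a random block (7.91%). Array weights gave 1, 1, 2 and 5 for 5, 50 and 500 kBq young and 50 kBq adult rats at 9 months (0.115%, 0.0277%, 0.352% and 31.1%), 4, 6 and 4 for 13 against 4, 7 and 10 months (35.6%, 33.6% and 39.3%), 1 for 10 against 7 months (2.2%), and 5, 3 and 4 for the adult effect at 9 months against 3 months, against 6 months and against young rats (23%, 26.3% and 23.5%). Without the 3 arrays that stand apart, the counts were 2 in adults at 9 months (8.9%), 3 for 13 against 4 months (21.9%) and 1 for young against adult rats at 9 months (2.23%). With the alike pairs averaged they were 0, 0 and 1 for 13 against 4, 7 and 10 months (0.0158%, 0.0988% and 0.0316%), and with both changes 1 in adults at 9 months (2.44%) and 2 and 0 for 13 against 4 and 7 months (10.1% and 0.771%). Leaving out 1 array gave 0 to 1 in young rats at 3 months, 0 to 2 in adults at 9 months, and 0 to 2, 0 to 4 and 1 to 3 for 13 against 4, 7 and 10 months; where the count moved, 0% to 16.9% of all tested probes were called. Related pairs were 19 on 49 arrays and 27 with quantile normalization, 13 as deviations from the group means. The cause of these changes was not tested. The replicate block changed no member's call, and of the Dbp calls it ended that for 10 against 4 months in controls (adjusted p = 0.0107). Among the members, probe signal over background limits Per1 most.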
